A study of Mus musculus with 2 samples.

Results

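Transcript levels of 44 genes that copy DNA, or make its building blocks, were read on 2 Agilent arrays of mDE6 cells, a line labelled as mouse odontogenic epithelial cells. The members are the genes of the origin recognition complex, of origin licensing, of the replicative helicase and its activation, of the replicative polymerases, the sliding clamp and its loader, the single-strand binding protein, lagging-strand maturation and deoxynucleotide synthesis. They were taken by gene symbol from the array's own probe annotation, which gave 44 of the 37074 gene names on the array, with 93 of its 56605 distinct probes. Both arrays carried RNA from cells of the same line at 6 h. The control array was labelled as treated with DMSO, the solvent, with the share printed as 0/1%, and the methods describe these cells as untreated. The other array carried RNA from cells given CHIR99021, an inhibitor of GSK-3 that lets β-catenin accumulate, at 5 mM in the labels and in micromolar units in the methods. The labels give no genotype, passage or culture number for the line.

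Before a cell copies its genome, the origin recognition complex marks the start points, and Cdc6 and Cdt1 load the Mcm2 to Mcm7 ring there as an inactive helicase. At the start of S phase, the kinase Cdc7 with its activator Dbf4, together with Mcm10, Cdc45 and the GINS proteins, turns the ring into a moving helicase, and the polymerases follow with their clamp, Pcna. Many of these genes are transcribed most in late G1 and S phase under E2F transcription factors, so that their mRNA levels are widely read as a sign of cycling cells. The study asked how β-catenin activity bears on the growth of these cells. It counted cells over days and reported lower growth with rising CHIR99021 dose. The mRNAs of the copying machinery at 6 h are a different measure at an earlier time.

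Each condition had 1 array, so no difference below has a replicate check or a test. In a bulk sample, a changed share of cells in S phase and a changed amount of RNA per cell cannot be told apart, in either direction. Besides control spots, each array had 59305 spots, of which 49.8% (control) and 48.3% (CHIR99021) exceeded background clearly by the scanner's flag and 0 were saturated. Signals are processed intensities, and a ratio is the CHIR99021 signal over the control signal after each was divided by the 75th percentile of the signals on that array (486.7 for control, 469.2 for CHIR99021). A ratio could be computed for 18837 gene names with a probe well above background on at least 1 array, here called tested genes, and their median log2 ratio was 0.02. Both arrays lay on 1 slide, so the position on the slide and the treatment cannot be told apart. The β-catenin target Lef1 read 239 (control) and 690.5 (CHIR99021), a log2 ratio of 1.58, and Axin2 was well above background on the CHIR99021 array alone. The cyclin gene Ccnd1 read 1563 and 1775, a ratio of 1.18.

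The label of the cells was set against marker genes. Of 19 odontogenic epithelium markers, 4 were well above background on both arrays, among them Trp63 and Krt14, and 12, among them the epithelial adhesion genes Cdh1 and Epcam and the enamel matrix genes Ambn, Amelx and Enam, were on neither array. Of 14 mesenchyme markers, 11 were well above background on both, with the collagen gene Col1a1 at 122887 on the control array. The mesenchyme markers measured had a median log2 ratio of -0.25, with 9 of 11 below a ratio of 1, and the summed level of all 14 was 989 times the 75th percentile for control and 928 times for CHIR99021. The 7 epithelium markers tested had a median log2 ratio of 0.11, with 4 above a ratio of 1, and the summed level of all 19 was 6.32 and 7.83 times. Krt5 was clearly above background only with CHIR99021, where it read 165, and Cldn1 and Krt18 only in the control. The part of these shifts in the ratios of the replication genes was not tested.

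Promoters of 5 members are printed to show the type of site through which E2F proteins act. RefSeq promoter windows (assembly GRCm38.p6), of 250 bases before and 50 after the start site, were found for 36 of the 44 genes. They were searched on both strands for TTTGGCGC, TTTCCCGC, TTTGCCGC and TTTCGCGC, and capitals mark a match on either strand. Orc1 (chr4:108579204-108579503, + strand), Cdc6 (chr11:98907901-98908200, + strand), Cdt1 (chr8:122567765-122568064, + strand) and Mcm3 (chr1:20820263-20820562, - strand) have the 4 highest ratios among the members that hold a match. Mcm10 (chr2:5012742-5013041, - strand) has the highest ratio without one, though its window ends in 7 of the 8 letters of such a word.
Orc1: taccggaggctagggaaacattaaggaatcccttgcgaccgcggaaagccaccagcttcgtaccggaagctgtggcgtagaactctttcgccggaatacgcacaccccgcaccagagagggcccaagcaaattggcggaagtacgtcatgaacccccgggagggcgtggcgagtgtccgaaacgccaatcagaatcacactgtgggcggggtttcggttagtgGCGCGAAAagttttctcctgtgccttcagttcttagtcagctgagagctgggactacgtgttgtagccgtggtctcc
Cdc6: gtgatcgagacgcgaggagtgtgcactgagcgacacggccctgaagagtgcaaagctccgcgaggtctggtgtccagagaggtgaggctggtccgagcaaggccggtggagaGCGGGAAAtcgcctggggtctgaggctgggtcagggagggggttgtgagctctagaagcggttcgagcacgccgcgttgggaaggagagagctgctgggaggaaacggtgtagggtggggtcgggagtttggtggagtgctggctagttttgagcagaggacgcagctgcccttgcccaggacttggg
Cdt1: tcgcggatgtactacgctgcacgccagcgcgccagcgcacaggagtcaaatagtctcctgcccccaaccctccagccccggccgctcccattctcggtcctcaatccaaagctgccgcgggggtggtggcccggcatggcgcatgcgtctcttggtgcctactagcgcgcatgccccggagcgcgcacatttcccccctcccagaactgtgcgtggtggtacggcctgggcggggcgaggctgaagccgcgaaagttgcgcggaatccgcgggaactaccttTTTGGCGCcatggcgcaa
Mcm3: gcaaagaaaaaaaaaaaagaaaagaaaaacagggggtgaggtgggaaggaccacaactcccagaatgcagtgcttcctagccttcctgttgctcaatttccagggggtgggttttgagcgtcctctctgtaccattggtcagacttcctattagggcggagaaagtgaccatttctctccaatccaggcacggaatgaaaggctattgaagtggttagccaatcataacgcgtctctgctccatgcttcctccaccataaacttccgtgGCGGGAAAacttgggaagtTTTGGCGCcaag
Mcm10: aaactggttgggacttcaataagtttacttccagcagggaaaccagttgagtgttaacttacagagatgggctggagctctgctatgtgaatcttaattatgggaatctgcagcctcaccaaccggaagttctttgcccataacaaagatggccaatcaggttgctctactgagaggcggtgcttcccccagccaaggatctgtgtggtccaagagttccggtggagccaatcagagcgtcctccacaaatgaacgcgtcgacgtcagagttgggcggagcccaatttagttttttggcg

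All 44 members were well above background on both arrays at their highest-signal probe, the probe used below. Signals lay between 94.2 and 19483 on the control array (median 2498) and between 129 and 19790.4 on the CHIR99021 array (median 2632). All the genes chosen, from the origin-binding to the ligation steps, were therefore measured. Other subunits of the machinery, such as Pold4 and Pole2, lie outside this set. On the array, 38 of the 44 genes had a ratio above 1 and 6 below 1, with a median log2 ratio of 0.17 (ratio 1.13) and a range from -0.44 to 0.70. The 6 genes below 1 were 13.6% of the members, where 46.6% of all tested genes were below 1. This count also moved with the scaling, to 13 (29.5%, beside 51.2% of all tested genes) in the authors' normalized table and 11 (25%, beside 53.9%) without scaling. Among genes with a mean signal at or above the 75th percentile, 6 of 39 members (15.4%) and 40.4% of the tested genes were below 1.

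**Figure D1:**
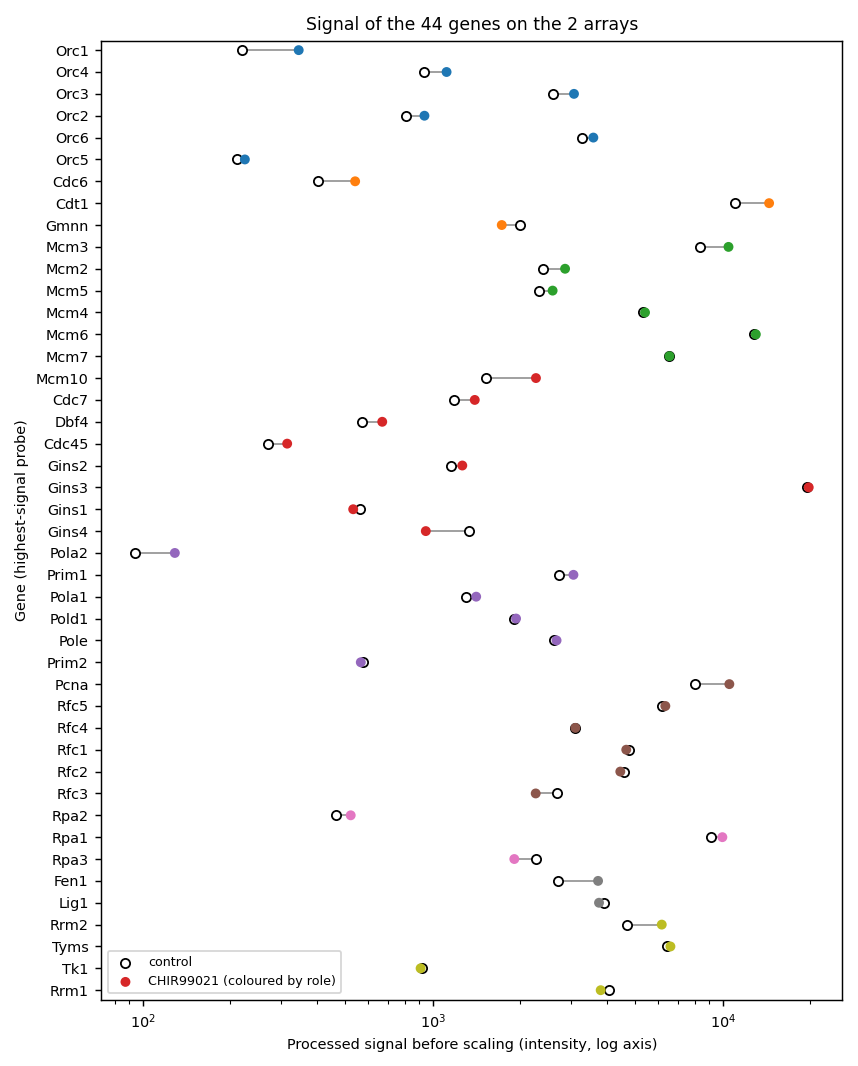
Processed signal (intensity, log axis) of each of the 44 genes at its highest-signal probe, with an open circle for the control array and a circle coloured by role for the CHIR99021 array (n = 1 array each). The circles lie close together for most genes, with the widest gaps at Orc1, Mcm10 and Gins4.

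The study's criteria for a lower gene join a ratio of at most 0.66 with a Z-score limit of 2 that is printed without a minus sign. The limit was read here as -2, and the Z-score, which the study's text does not define, was taken as the log2 ratio against the 500 probes nearest in mean signal. By these criteria 0 of 44 members were lower, where 3.22% of all tested genes were. By the mirrored criteria (ratio of 1.5 or more, Z-score of 2 or more), 0 of 44 members were higher, where 2.63% of all tested genes were. The Z-scores of the members lay between -1.35 and 1.88. Orc1 and Mcm10 passed the ratio of 1.5 but fell short of the Z-score.

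At a smaller fold of 1.2, 16 of 44 members (36.4%) were higher on the CHIR99021 array, beside 23.2% of all tested genes, and 1 (2.27%) was lower, beside 22.2%. The count of higher members depended on the scaling, with 9 (20.5%, beside 19.5% of all tested genes) without scaling and 19 (43.2%, beside 28.9%) on spike-in controls, so that without scaling it was near the share of all genes. The log2 ratios of genes of higher signal spread less, and 39 members had a mean signal at or above the 75th percentile. In that range 12 of 39 members (30.8%) were higher by 1.2-fold, beside 20.8% of the tested genes, and 1 (2.56%) was lower, beside 12.9%. The median log2 ratio in that range was 0.10 for the members and 0.05 for the tested genes. The scanner's error model, which assumes a 10% multiplicative error, gives each member's log2 ratio an error of 0.20 to 0.23. Of the 44 log2 ratios, 20 were larger than this error and 9 were larger than 2 such errors. The share of all tested genes past their own error was not computed, and the quartiles of their log2 ratios were -0.22 and 0.24. Replicated spots of the same probe varied less than the scanner error, with a median SD of 0.03 over 264 probes. This SD covers spot-to-spot error within an array only.

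**Figure D2:**
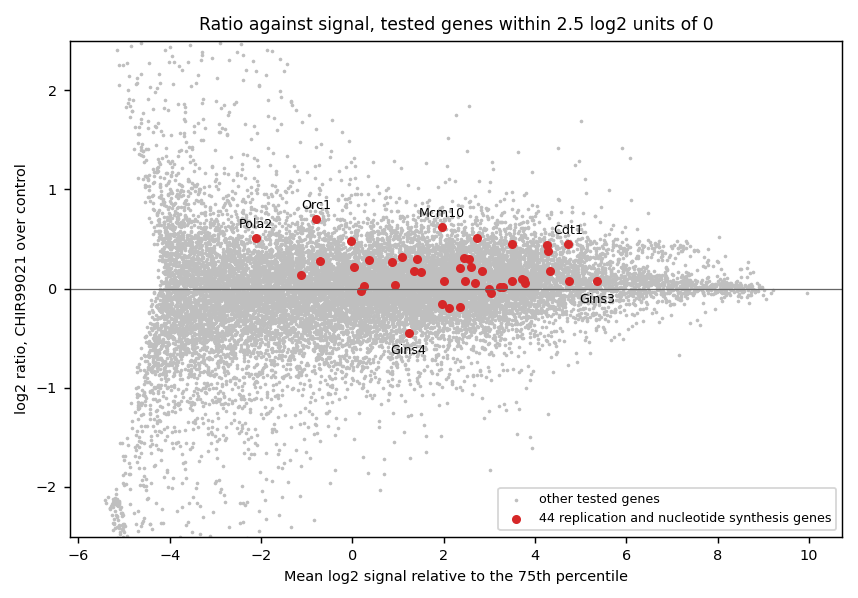
Log2 ratio of CHIR99021 over control against the mean log2 signal relative to the 75th percentile, with a grey point per tested gene and a red point per member (n = 1 array per condition). The 44 members lie between -0.44 and 0.70, inside the cloud of the other genes, most of them above 0, and 789 genes beyond 2.5 log2 units on either side are not drawn.

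The origin recognition complex binds the start points of replication. At the probes used, all 6 subunits had a ratio above 1, with a median log2 ratio of 0.28, where 10062 of the 18837 tested genes were above 1. Orc1, a subunit that binds ATP, read 219.8 for control and 345 for CHIR99021, a ratio of 1.63, the highest of the 44 genes. Its 3 probes, of which the one used lies at chr4:108287350-108287409 (mm9), gave log2 ratios from 0.56 to 0.85. Orc4 read 931 and 1116 (ratio 1.24), and Orc3 read 2595 and 3069.9 (1.23). Orc2 read 809 and 936, a log2 ratio of 0.26. The probes of Orc4 and Orc3 did not all point the same way. For Orc4, 2 other probes measured on both arrays, one at 94.1 and 66.9 and one at 70.4 and 55.2, gave ratios of 0.738 and 0.814. For Orc3, a probe at 65.1 and 53.4 gave 0.851 and a further one 1.22. Orc6 (log2 ratio 0.18) and Orc5 (0.14), whose probe covers more genome than its own length, differed from 0 by less than the scanner error.

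Cdc6 and Cdt1 load the helicase onto the marked origin, and both read higher on the CHIR99021 array. Cdc6 read 402 and 540.2, a ratio of 1.39, with 1.52 at its other probe. Cdt1 read 10994 and 14450.5, a ratio of 1.36 at its 1 probe. Gmnn encodes geminin, which binds Cdt1 and blocks loading, and it lay on the other side of 1, with 1994 and 1730.2 (ratio 0.900) and 0.834 at its other measured probe. The loading factors and their inhibitor thus had ratios on opposite sides of 1, and the difference of Gmnn at the probe used was smaller than the scanner error.

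The ring of Mcm2 to Mcm7 is the core of the replicative helicase, and its 6 subunits had ratios from 1.04 to 1.30. In the authors' normalized table and under quantile normalization, Mcm4, Mcm6 and Mcm7 were below 1, by at most 0.03 on the log2 scale. Mcm3 read 8337 and 10468 (ratio 1.30), and its 3 other probes gave 1.39, 1.44 and 1.51. Mcm2 read 2402 and 2860.1 (log2 ratio 0.30), and Mcm5 read 2333 and 2591 (1.15). The other members of the ring were close to 1, with Mcm4 and Mcm6 at 1.05 each and Mcm7 at 1.04. The other probe of Mcm7, at 65.9 and 94.1, gave a ratio of 1.48, where the probe used read 6539.8 and 6549.9. Mcm3 and Mcm2 were thus the members of the ring past 1.2-fold, though Mcm2 fell short of it in the authors' table, under quantile normalization and cyclic loess, without scaling and with the percentile over detected probes.

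**Figure D3:**
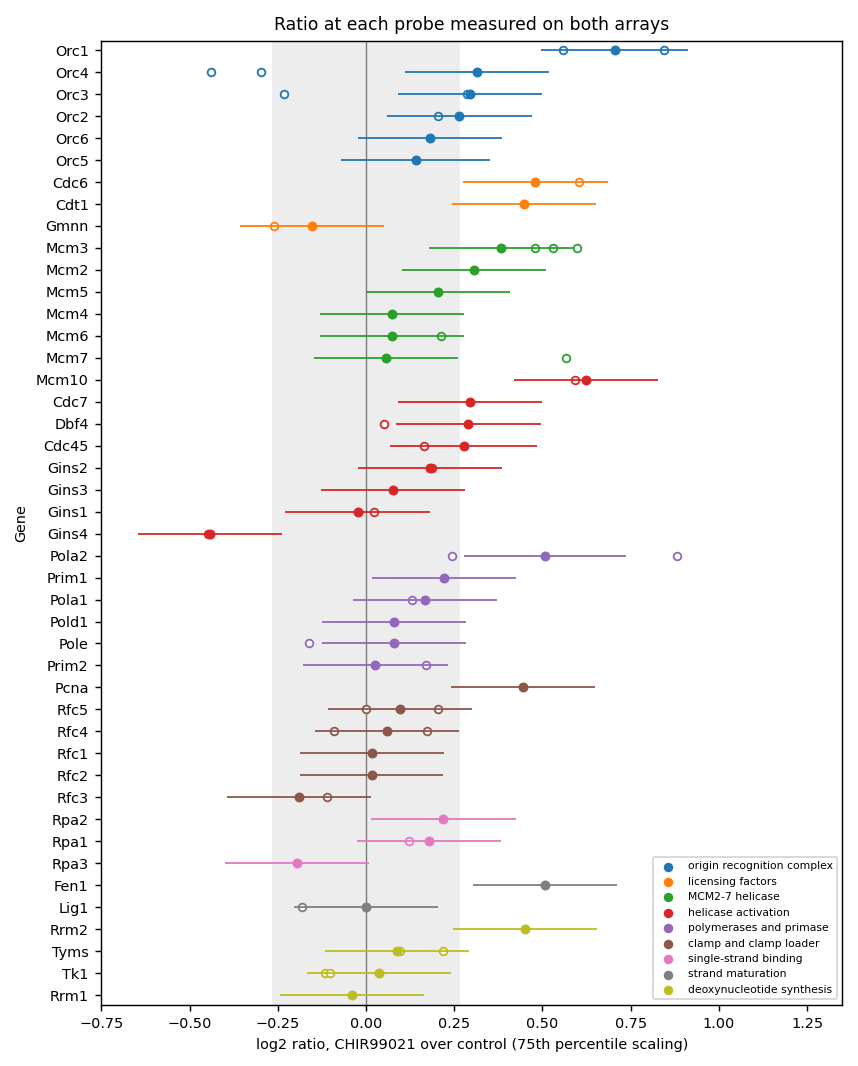
Log2 ratio of CHIR99021 over control at each probe measured on both arrays, for the 44 genes sorted by role (n = 1 array per condition). Filled points are the highest-signal probes with the scanner's error as bars, open points the other probes, and the grey band marks less than 1.2-fold; among the filled points, Orc1 and Mcm10 lie farthest right and Gins4 alone lies left of the band.

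The factors that start the loaded helicase held both the gene with the next-highest ratio after Orc1 and the lowest of all. Mcm10, which joins the helicase at the moment of firing, read 1528 and 2269.9, a ratio of 1.54, at chr2:4911845-4911904 (mm9), and its other probe, at 85.0 and 123.6, gave 1.51. Cdc45, which together with GINS completes the helicase, read 269.7 and 315 (1.21). The kinase Cdc7 read 1180.0 and 1396 (1.23), and its activator Dbf4 read 568 and 669.9 (1.22). These 4 genes were past 1.2-fold, though the other probe of Cdc7, well above background on the control array alone, read 32.2 and 19.8, that of Dbf4 gave a log2 ratio of 0.05 and that of Cdc45 gave 0.16. Without scaling, and with the percentile over detected probes, Cdc45, Cdc7 and Dbf4 were under 1.2-fold. With the mean over probes, Cdc45 and Dbf4 were under it and Cdc7 turned below 1, to a log2 ratio of -0.18. Cdc7 also fell short in the authors' table and under quantile normalization and cyclic loess. Dbf4 did so under cyclic loess and normexp correction, and Cdc45 under normexp correction.

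The 4 GINS genes encode a complex of fixed make-up, and their ratios differed. Gins4 read 1335 and 947, a ratio of 0.736, and was the 1 member lower by 1.2-fold. Its probe lies at chr8:24337452-24337511 (mm9), and its other probe read 1063 and 751, a ratio of 0.733. The rest of the complex was near 1, with Gins2 at 1.13, Gins3 at 1.05 and Gins1 at 0.984. Gins3 read 19483 and 19790.4, and the probes of Gins2 gave 0.18 and 0.19 on the log2 scale. Within the complex, Gins4 therefore stood apart at both of its probes, of which one lies in the earlier and one in the later rows of the array.

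Polymerase α with its primase lays down the primers, and polymerases δ and ε extend them. The 6 genes measured had a median log2 ratio of 0.12. Pola2, a subunit of polymerase α, read 94.2 and 129 (ratio 1.42), at the lower end of the signals, and its probes on both arrays ranged from 0.24 to 0.88 on the log2 scale. The probe used for Pola2 is the only one of the 44 that carries a cDNA accession in place of a RefSeq mRNA, and its RefSeq mRNA probe is the one at 0.24 (ratio 1.18), which is under 1.2-fold. The primase subunit Prim1 read 2723 and 3057 (1.16) and Prim2 read 575 and 565 (1.02). The catalytic subunits Pola1 (1.12), Pold1 (1.06) and Pole (1.06) were within the scanner error of 1.

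Pcna, the ring that holds the polymerases on DNA, read 8034 and 10539, a ratio of 1.36, at its 1 probe, which covers more genome than its own length. The genes of the complex that opens this ring did not share its ratio. Rfc1 and Rfc2 were at 1.01 each, Rfc4 at 1.04 and Rfc5 at 1.07, and Rfc3 read 2679 and 2265, a ratio of 0.877. Rpa1 and Rpa2, of the protein that covers single-stranded DNA, were at 1.13 and 1.16, whereas their partner Rpa3 read 2270 and 1911 (0.874).

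Fen1, which trims the flaps between lagging-strand fragments, read 2710.3 and 3716, a ratio of 1.42. Lig1, which then seals them, read 3882 and 3745, a ratio of 1.00. Among the genes that supply deoxynucleotides, Rrm2, the regulated subunit of ribonucleotide reductase, read 4677 and 6162 (1.37), and Rrm1, the large subunit of the same enzyme, read 4048 and 3795 (0.973). The thymidylate-forming enzymes Tyms (1.06) and Tk1 (1.03) were near 1. Fen1 and Rrm2 were thus past 1.2-fold, while their partners Lig1 and Rrm1 were not.

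Of the 44 genes, 26 had more than 1 probe measured on both arrays, and these probes differed by a median of 0.14 on the log2 scale, against 0.17 for the 5688 such genes of the array. All probes pointed the same way for 18 of the 26 (69.2%), beside 70.3% of all such genes, and 2 genes, Orc4 and Pola2, had probes more than 1.5-fold apart. Members were also compared by place on the array. The 20 members probed past row 192 of 384 had a median log2 ratio of 0.24, with 10 higher by 1.2-fold (50%, beside 25.2% of the tested genes of those rows) and 1 lower (5.0%, beside 23.9%). The 24 in the earlier rows had a median of 0.08, with 6 higher (25%, beside 21.0%) and 0 lower (beside 20.4%), where the medians of all tested genes were 0.03 and 0.02. The part of place in the ratios of the members was not tested.

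The choice of scaling, and also the choice of probe, changed how far above 1 the members lay. Over 9 ways of scaling or background correction, with the one used here and the authors' own table among them, the median log2 ratio of the members was between 0.12 and 0.24. Of these, 5 shift every gene by the same amount, so that the members stayed 0.15 above the median of all tested genes by construction, and in the other 4 the distance was 0.13 to 0.14. These distances are to genes of any signal, and most members had a high one. Among genes at or above the 75th percentile, with the scaling used here, the medians were closer, at 0.10 for members and 0.05 for tested genes. Scaling on the spike-in controls gave the highest median of the members and no scaling the lowest. All 16 members higher by 1.2-fold, and Gins4, kept their side of 1 in these 9, while 33 of the 44 did. Without scaling, 9 of the 16 were still past 1.2-fold, and Cdc45, Cdc7, Dbf4, Mcm2, Orc2, Orc3 and Orc4 were not. Under the other rules for genes with several probes, the median fell to 0.07 with the lowest probe of each gene.

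**Figure D4:**
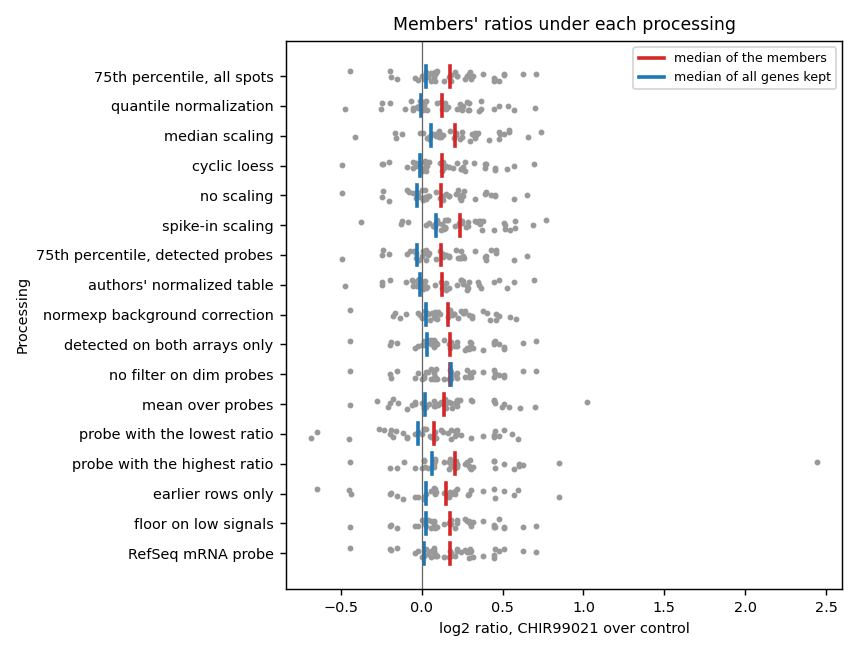
Log2 ratio of CHIR99021 over control of the members under each processing (grey points, 1 per gene), with the median of the members in red and the median of all genes kept in blue (n = 1 array per condition). The red line lies right of the blue line everywhere except without a filter on dim probes, where they are at 0.17 and 0.18, and the point at 2.44 is a probe of Pola2 measured on the CHIR99021 array alone.

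In the promoter windows, the E2F-type words printed above were found in 13 of the 36 members with a window (36.1%), beside 2.60% of the 27025 genes with a window and 4.27% of the 10863 tested ones. The 13 were Cdc6, Cdt1, Gins3, Lig1, Mcm3, Mcm5, Mcm6, Mcm7, Orc1, Orc3, Pola1, Pold1 and Rfc3. They held 19 matches, 12 of them upstream of the start site, from 165 bases before it to 39 bases after it, with 2 overlapping pairs on opposite strands in Mcm5 and Mcm6. Whether the ratios go with a match was not tested. Mcm10, whose window ends in 7 of the 8 letters of a word, is counted here as without a match. The median log2 ratio was 0.17 for the 13 genes with a match and 0.22 for the 23 without, and 5 of the 16 members higher by 1.2-fold held one, against 8 of the 20 others. A match is a description of the letters in this window and says nothing about binding.

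**Figure D5:**
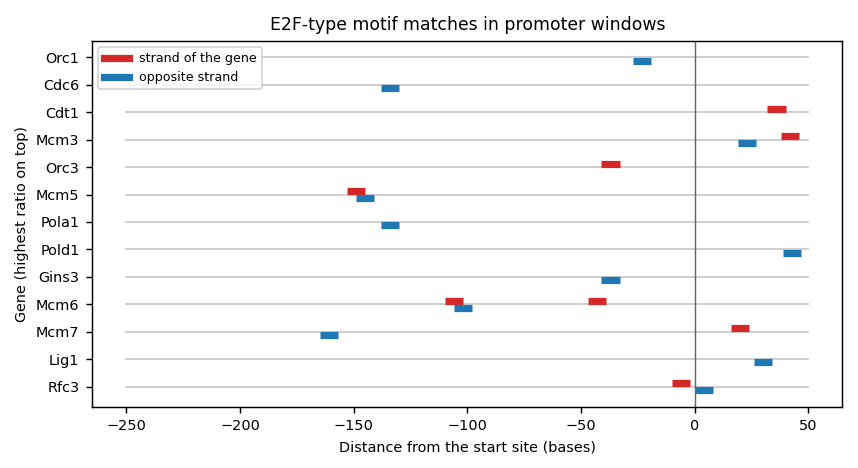
Place of each E2F-type match relative to the start site (bases) in the promoter windows of the 13 members that hold one, sorted by ratio with the highest on top, red for the strand of the gene and blue for the opposite strand. Matches lie from -165 to 39, and the windows of Orc1 at the top and Rfc3 at the bottom both hold matches close to the start.

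The words bound by the partners of β-catenin, searched as CTTTGAA and CTTTGAT on both strands, were in the windows of 2 members, Cdc7 and Fen1 (5.56%), beside 9.88% of all genes and 7.54% of the tested ones. Both were among the 16 members higher by 1.2-fold. Cdc7 fell short of it in the authors' table, under quantile normalization and cyclic loess, and without scaling. A link between these words and the ratios was not tested. The word CCAAT, the site of the factor NF-Y, was in 22 of the 36 (61.1%), beside 41.1% of all genes. Windows of the members held more G and C, with a median of 61.3% against 52.7% over all promoters.

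Further genes of the same pathways, from lists beside the 44, were read on the same arrays. Of 40 other replication fork genes tested, 14 were higher by 1.2-fold and 3 lower, with a median log2 ratio of 0.19, beside the 23.2% and 22.2% of all tested genes. The largest ratios measured on both arrays were those of Chaf1b, a subunit of the histone chaperone that follows the fork (1.62), the nucleases Dna2 (1.59) and Exo1 (1.46), and the helicase Recql4 (1.39). The 3 lower were Pold4 (0.719), Pole2 (0.777) and Rnaseh2a (0.796), named after their values were seen. Of 35 other nucleotide synthesis genes, 12 were higher by 1.2-fold and 2 lower, with a median of 0.18. Here the folate enzymes Mthfd1l (1.61) and Shmt1 (1.55) and the purine enzyme Pfas (1.59) had the highest ratios. Samhd1, which degrades deoxynucleotides, read 3430.5 and 1912, a ratio of 0.578, and Prps2, which makes the sugar phosphate for nucleotides, read 951 and 701 (0.765). Of these 75 genes, Samhd1 met the study's criteria for a lower gene (Z-score -2.96), and Chaf1b and Mthfd1l met the mirrored ones (Z-scores 2.02 and 2.11), beside 3.22% and 2.63% of all tested genes, counts that are near or below the general share.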

How the data were processed

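Total RNA of mDE6 cells was amplified, labelled with Cy3 and hybridised by the authors to Agilent arrays, 1 per condition. Per the file headers, spots were quantified with Feature Extraction 10.7.1.1 on a mouse design of build mm9, whereas the submitters' processing notes give version 9.5.1.1 and the methods name a human array. The deposited intensity is the processed signal, with background subtracted and no scaling across arrays. A second deposited table holds intensities that the authors made comparable across arrays by a method not given in the sources used here, which served as an alternative.

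From these, control and outlier spots were left out, spots of a probe were averaged, and each signal was divided by the 75th percentile of its array and taken to log2 (Python 3.11.15 with pandas 2.3.3 and numpy 2.4.6; figures with matplotlib 3.10.9). The 28066 probes that the scanner marked well above background on either array were kept, and a gene was given its probe with the highest mean signal. The Z-score used the mean and SD of the 500 probes nearest in mean signal. The calling scripts were checked on simulated data with known changes, which does not stand in for replicates. Coordinates of probes are those of the files (mm9); whether a probe lies in coding sequence or UTR was not analysed here. Promoters came from RefSeq (GRCm38.p6) by symbol, with 44 windows for 36 genes. The array named the genes, and 68 of the 93 probes, those with a RefSeq mRNA accession, were in the RefSeq table under the same symbol.

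The members and lists were chosen with earlier results of these data known. All 44 members were named, with at most 4 genes of each other pathway list, those past 1.2-fold with the largest change on both arrays, and the treatment checks; lower genes of those lists beyond the 4 were added after their values were seen. No columns of other samples were present, and 1 array per condition limits the precision.

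Alternatives were scaling by quantiles, by the median, by cyclic loess, by spike-in probes or not at all, the percentile over probes above background on both arrays, normexp correction (offset 50) in limma 3.58.1 under R 4.3.3, the authors' table, other filters and floors, other Z-scores, other probe rules and the earlier rows alone. A rule that prefers probes with a RefSeq mRNA accession was chosen after seeing the data.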

Additional observations from a re-analysis of the deposited data

How the results depend on the processing

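No paired analysis was possible because 1 array per condition leaves no pairs of replicates. The median log2 ratio of the members, 0.17, was above 0 under every alternative run. It was 0.12 with quantile normalization, with no scaling, with the percentile over probes above background on both arrays and with the authors' table, 0.13 with cyclic loess, 0.20 with median scaling and 0.24 with spike-in scaling. It was 0.14 with the mean over probes, 0.075 with the probe of the lowest ratio and 0.20 with that of the highest. Members below a ratio of 1, 6 here, numbered 12 with quantile normalization (all genes 50.7%), 11 with cyclic loess (51.4%), with no scaling (53.9%), with the percentile over detected probes (53.7%) and with the mean over probes (47.2%), 13 with the authors' table (51.2%) and 15 with the lowest probe (52.6%). Members higher by 1.2-fold, 16 here, numbered 9 with no scaling (20.5%, against 19.5% of all genes), 10 with the percentile over detected probes (22.7% against 19.6%), 9 with the lowest probe (20.5% against 20.1%) and 10 of 36 in the earlier rows alone (27.8% against 21.6%). With the mean over probes they numbered 11 (25% against 23.8%). Members lower by 1.2-fold, 1 here, numbered 2 with the mean over probes (all genes 23.0%), 3 with the lowest probe (27.4%) and 3 of 36 in the earlier rows (20.5%). With a Z-score from the median and MAD, or the ratio criterion alone, 2 members, Mcm10 and Orc1, were higher by the mirrored criteria. None was lower by the study's criteria under any alternative.

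In at least 1 alternative, 18 of the 44 members turned to the other side of 1, most of them, such as Lig1, Tk1, Rfc1 and Rfc2, with a ratio near 1 here. Among the 17 past 1.2-fold, ratios turned for Cdc7 (0.885 with the mean over probes, 0.638 with the lowest probe and in the earlier rows), Orc3 (0.851 with the lowest probe) and Orc4 (0.826 with the mean over probes, 0.623 with the lowest probe and 0.738 in the earlier rows). The probes behind these values are dimmer, and the cause was not tested. Without a filter on dim probes, the median of all genes was 0.18, above the 0.17 of the members. With the RefSeq mRNA rule, 15 members were higher by 1.2-fold (34.1%, against 21.8% of all genes). With normexp correction 12 were (27.3% against 18.4%), and the log2 ratio of Pola2 went from 0.51 to 0.31 and that of Orc1 from 0.70 to 0.54. All 44 genes were above background, but several second probes were close to it, and 1 array per condition leaves the spread between cultures unknown.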
